A study of Danio rerio with 9 samples.

Results

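Organic ion transporters move charged metabolites, hormones and drugs across cell membranes. The genes described here are the 35 of 30628 genes in the deposited table of zebrafish kidney RNA whose name begins with *slc22a* (16 genes), *slco* (14 genes) or *slc47a* (5 genes). The *slc22a* genes encode organic cation, zwitterion and anion carriers, the *slco* genes encode organic anion transporting polypeptides, and the *slc47a* genes encode multidrug and toxin extrusion (MATE) antiporters. One member, *SLCO3A1* on chromosome 7, is listed in capitals and was included with the other 34.

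In the mammalian proximal tubule, organic cations enter the cell from the blood side through carriers such as SLC22A2 and leave into the urine through MATE antiporters. Organic anions are taken up at the blood side by carriers such as SLC22A6, in exchange for dicarboxylates, and leave through other carriers and ABC pumps. In rats and mice, several of these carriers are known to have more RNA in the male kidney, *Slc22a2* among them.

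RNA of whole kidneys was sequenced in 4 male and 5 female libraries, and the comparison asks which genes differ between the sexes. All fish were wild-type WIK, a laboratory strain, at 12 months of age, with no treatment. Males gave libraries M1, M2, pkd1M1 and pkd1M4 and females gave libraries F1, F2, F3, F4 and F6, and the pkd1 in those names stands beside a wild-type mark in the table. The zebrafish kidney is also the blood-forming organ, so each library mixes tubule and blood cell RNA, and in such bulk RNA fewer cells of a type and less RNA per cell cannot be told apart. Library totals lay between 24902978 and 52986838 estimated counts. Nothing in the labels says that each library came from separate fish, so the p-values measure the spread between these libraries.

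Levels are given as CPM, counts relative to the library total, after TMM normalization, which corrects for differences in library composition. A CPM value may depend on transcript length here, so tests compared levels between libraries and not between genes. Shares, sums and rankings over several genes carry this limit. Male and female libraries were tested against each other by edgeR's quasi-likelihood method, with Benjamini-Hochberg adjustment over all 22148 genes tested, and log2 fold changes above zero mean more RNA in males. A gene was called where the adjusted p was under 0.05 and the log2 fold change was above 1.5 in size. Coordinates are those of GRCz11.

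Of the 35 transporters, 32 passed the filter on low counts, 11 were called higher in males and 0 were called higher in females. Among all genes tested, 6.54% were called in either direction, 3.48% higher in males and 3.06% higher in females. On the adjusted p alone, 13 transporters were higher in males, where 7.02% of all genes were, and 1 was higher in females, where 6.20% were. At an unadjusted p under 0.05, 3 of the 32 were lower in males, against 2971 of all 22148 genes tested. In 10 of the 32, all males were higher than all females, which 8.42% of all genes did, and in 2 all females were higher than all males, which 8.06% did. The median log2 fold change of the 32 tested members was 0.84, with 23 above zero and 9 below, against -0.03 over all genes tested.

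The 11 called genes were *slc22a2*, *slc22a6l*, *slc22a7b.2*, *slc22a7b.3*, *slc22a23*, *slc47a1*, *slc47a2.1* and the 4 paralogs *slco1f1* to *slco1f4*. Leaving out 1 library at a time, the members called numbered between 8 and 14, and the calls of *slc22a2*, *slc22a6l*, *slc22a7b.2*, *slc47a2.1*, *slco1f1* and *slco1f3* held each time. Without the pair of pkd1-named males the number fell to 2, *slc47a2.1* and *slco1f3*, with 2 male libraries remaining, and all 11 kept a log2 fold change in the male direction, between 1.21 and 3.09. Over all genes tested, calls fell from 1448 to 635 without those males, and lay between 1086 and 1707 with each library left out.

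**Figure D1:**
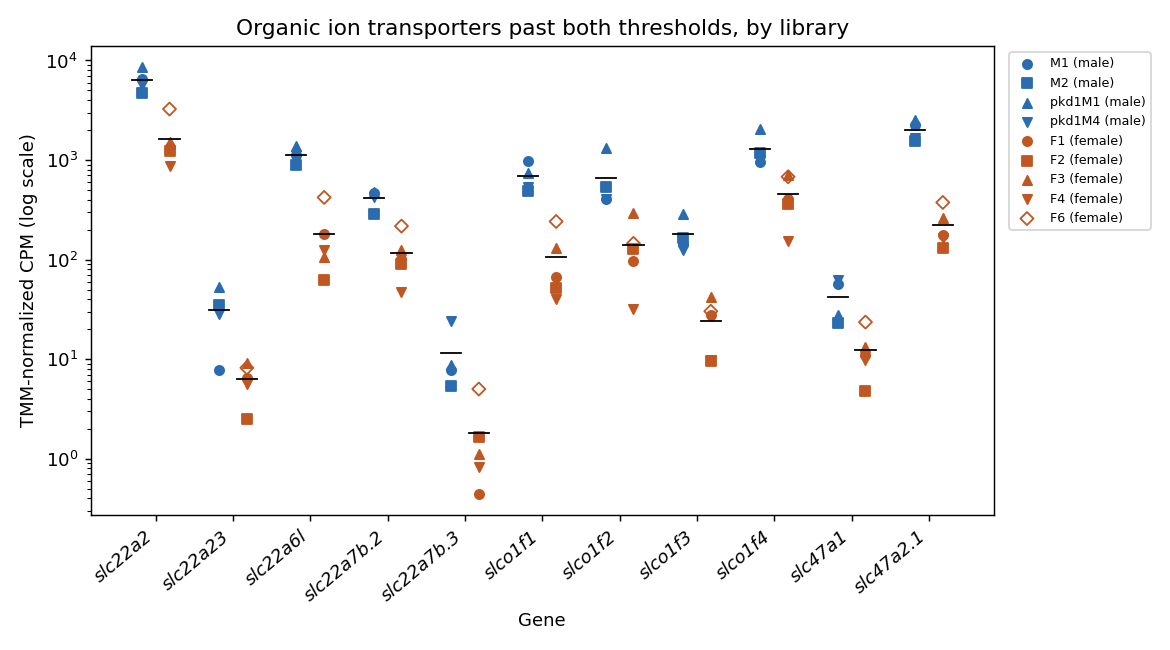
TMM-normalized CPM on a log scale (vertical axis) of the 11 called transporters in each of the 9 libraries, with males in blue, females in orange, library F6 as an open diamond and a black bar at the mean of each sex. In 9 of the 11 genes, which were picked by their sex difference in these libraries, no female point reaches the lowest male point, and the exceptions are *slc22a23* and *slc47a1*.

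Taken over the whole group, the transporters held 1.32% ± 0.27 (SD, n = 4) of the deposited counts in males, from 1.06% to 1.68%, and 0.397% ± 0.177 (SD, n = 5) in females, from 0.237% to 0.684%. No female library reached the lowest male library. A large part of the sum came from *slc22a2*, which alone held 0.585% ± 0.126 (SD, n = 4) in males against 0.170% ± 0.085 (SD, n = 5) for females.

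*slc22a2*, the homolog of the mammalian cation carrier OCT2 of the blood side of the proximal tubule, lies on chromosome 20 from 42668875 to 42688487. Its CPM was 6453 in M1, 4740 in M2, 5687 in pkd1M4 and 8545 in pkd1M1, against 3249 in F6, 1357 in F1, 1223 in F2, 1512 in F3 and 867 in F4. The sexes did not overlap, and F6 stood apart from the other females, between them and the males. This gave a log2 fold change of 1.95 ± 0.36 (SE), with an edgeR adjusted p of 0.0060. With each library left out the value ran from 1.77 to 2.36, the highest without F6.

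MATE antiporters exchange organic cations for protons, and in mammals they carry the cations taken up by OCT2 into the urine. *slc47a2.1*, on chromosome 21 from 39992151 to 40015530, had a CPM of 2226 in M1, 1555 in M2, 1664 in pkd1M4 and 2509 in pkd1M1, against 375 in F6, 177 in F1, 132 in F2, 261 in F3 and 165 in F4. Every male value was more than any female value, and the male mean, 1989 ± 455 (SD, n = 4), was 8.96 times the female mean of 222 ± 97.8 (SD, n = 5). The log2 fold change of 3.16 ± 0.32 (SE) had an edgeR adjusted p of 0.00038, the smallest among the transporters, and stayed between 3.01 and 3.61 under every alternative, always past both thresholds.

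The neighbouring *slc47a1*, on chromosome 21 from 39941184 to 39976240, had a CPM of 56.9 in M1, 23.3 in M2, 62.4 in pkd1M4 and 27.7 in pkd1M1. In females its CPM was 23.5 in F6, 10.99 in F1, 4.77 in F2, 13.3 in F3 and 9.82 in F4. F6 lay just above M2, the lowest male, and below the other males. Its log2 fold change was 1.77 ± 0.44 (SE, edgeR adjusted p = 0.026), and the call was lost without M1, pkd1M4, F1, F3 or F4, with adjusted p-values from 0.051 to 0.078.

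The remaining 3 *slc47a* genes were not called. The pair on chromosome 15 had log2 fold changes of 0.79 ± 0.54 (SE) in *slc47a3* and 0.47 ± 0.51 (SE) in *slc47a4*, with edgeR adjusted p-values of 0.40 and 0.63. With each library left out the value of *slc47a4* ran from 0.047 without M1 to 1.17 without F6, and the gene was called only under the replicate block over 4 libraries, at 1.57 with an adjusted p of 0.047. *slc47a4* spanned 88.9 to 216 CPM in males and 37.5 to 226 CPM in females, and its highest value in each sex, in M1 and F6, stood far from the others. *slc47a2.2*, on chromosome 1, ran the other way, with 0.467 to 4.36 CPM in males and 3.38 to 13.4 CPM in females, and a log2 fold change of -2.06 ± 0.74 (SE, edgeR adjusted p = 0.0997). One male library, pkd1M1, held the value of 4.36, and without it the gene was called at -3.30, with an adjusted p of 0.015.

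The stretch of chromosome 21 around the called MATE genes held other genes with a difference of the same direction. From *tmigd1*, 15.8 kb before the start of *slc47a1*, to *slco2b1*, which ends 233 kb after it, 9 genes were tested. Of these, 5 were called higher in males, where 3.48% of all genes tested were. These were *tmigd1*, *slc47a1*, *slc47a2.1*, *BX248108.1* and *slc13a5a*, a member of the citrate carrier family, whose log2 fold changes ran from 1.77 to 3.16. The table of gene names pairs *BX248108.1* with *slc47a2.2*, and whether it shares reads with *slc47a2.1* was not tested. Of the 5, *slc47a1* and *slc47a2.1* are the called genes that the stretch was drawn around. Inside the same stretch *med31*, a Mediator subunit, had -0.34 ± 0.29 (SE), *serpinf1* -0.08 ± 0.46 (SE) and *serpinf2a* 2.69 ± 1.79 (SE). None of these passed the test. *slco2b1*, at the end of the stretch, went the other way, at -1.46 ± 0.19 (SE, edgeR adjusted p = 0.0011). The bounds of this stretch were chosen after the values were seen.

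**Figure D2:**
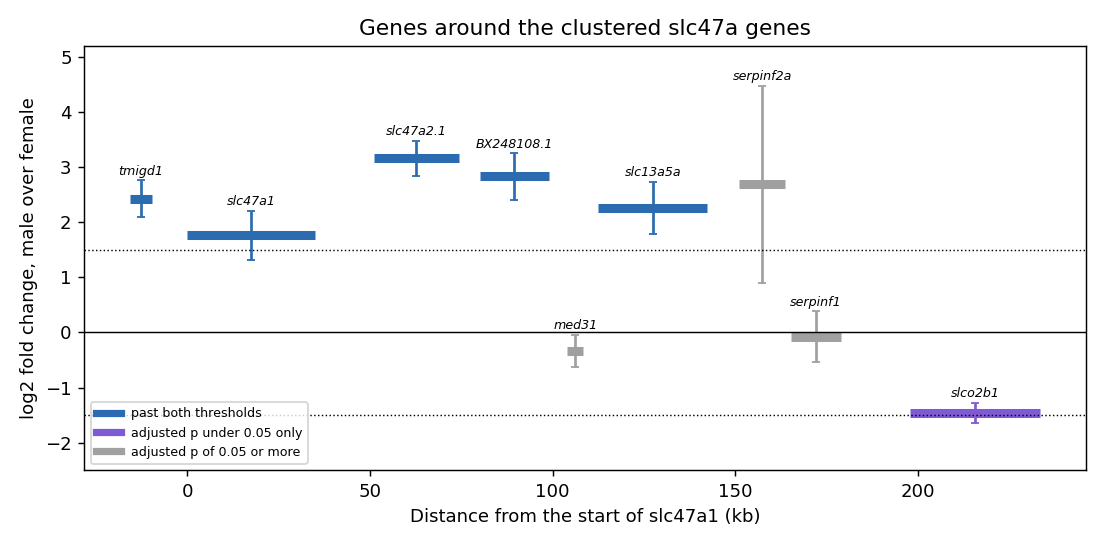
Log2 fold change, male over female (vertical axis), of the 9 tested genes against their distance in kb from the start of *slc47a1* (horizontal axis), with thick bars for the extent of each gene, thin bars for the standard error and dotted lines at the fold change threshold of 1.5 in each direction. The 5 blue genes lie above 1.5, and *slco2b1* lies just above the lower line at -1.46.

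Of the organic anion carriers in the *slc22a* family, 3 were called higher in males, where 3.48% of all genes tested were. They were *slc22a6l* and a pair of *slc22a7b* copies. *slc22a6l*, named for its likeness to mammalian SLC22A6 (OAT1) and paired with SLC22A8 in the table of gene names, lies on chromosome 21 from 28478663 to 28494322. Its CPM was 1127 in M1, 896 in M2, 1122 in pkd1M4 and 1380 in pkd1M1, against 421 in F6, 179 in F1, 61.7 in F2, 106 in F3 and 126 in F4. All males were above all females, the male mean was 6.33 times the female mean, and F6 was again the highest female. Its log2 fold change was 2.66 ± 0.48 (SE, edgeR adjusted p = 0.0054).

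The *slc22a7b* genes are tandem copies on chromosome 17, related to mammalian SLC22A7 (OAT2), a carrier of organic anions and of cyclic nucleotides. They lie 336 and 922 bases apart, so reads shared by the copies may have been divided between them and their separate values are uncertain. *slc22a7b.2*, from 21994043 to 22001935, had a CPM of 464 in M1, 286 in M2, 424 in pkd1M4 and 476 in pkd1M1, against 217 in F6, 102 in F1, 90.7 in F2, 125 in F3 and 47.7 in F4. The sexes did not overlap, and the log2 fold change was 1.83 ± 0.37 (SE, edgeR adjusted p = 0.0093).

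*slc22a7b.3*, from 21982617 to 21993707, was a low gene with 7.80 CPM in M1, 5.37 in M2, 23.9 in pkd1M4 and 8.63 in pkd1M1, against 5.01 in F6, 0.445 in F1, 1.64 in F2, 1.11 in F3 and 0.820 in F4. No female reached a male, with F6 just under M2. Its log2 fold change was 2.67 ± 0.72 (SE, edgeR adjusted p = 0.034), and the call was lost without M1, pkd1M1, pkd1M4, F1, F2, F3 or F4, at 2.01 to 2.81 and adjusted p-values from 0.055 to 0.12. Its start overlaps the end of *crip3* in the annotation, which adds to the uncertainty of so low a value.

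*slc22a7b.1*, from 22002857 to 22010668, was not called. Its CPM was 838 in M1, 382 in M2, 532 in pkd1M4 and 514 in pkd1M1, against 517 in F6, 224 in F1, 198 in F2, 251 in F3 and 86.8 in F4. F6 lay among the males and the other females below them. A log2 fold change of 1.15 ± 0.42 (SE) had an edgeR adjusted p of 0.11, and without F6 the gene was called at 1.58, with an adjusted p of 0.014.

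The 3 copies together summed to 674 to 1309 CPM in males and to 135 to 738 CPM in females. Within this sum *slc22a7b.2* took 42.2% ± 5.1 (SD, n = 4) in males against 32.0% ± 2.2 (SD, n = 5) for females, and *slc22a7b.1* took 56.6% ± 5.4 (SD, n = 4) and 67.5% ± 2.2 (SD, n = 5). For neither share did the sexes overlap, although M1 and F4 nearly met, at 35.4% and 35.2% for *slc22a7b.2*. A further gene named for mammalian SLC22A7, *slc22a7a* on chromosome 11, had 1 count in all 9 libraries together and was not tested.

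The carnitine and zwitterion carriers of the family, known in mammals as OCTN proteins, showed smaller differences. *slc22a4*, on chromosome 21 from 45897814 to 45903536, had a CPM of 228 in M1, 191 in M2, 273 in pkd1M4 and 271 in pkd1M1, against 220 in F6, 91.0 in F1, 76.3 in F2, 92.8 in F3 and 64.6 in F4. F6 overlapped the males, and the other females lay well below both. Its log2 fold change of 1.14 ± 0.34 (SE) passed the adjusted p at 0.049 (edgeR) but not the fold threshold. Without F6 the gene was called at 1.57, with an edgeR adjusted p of 0.00090. Without any other single library the edgeR adjusted p was above 0.05, from 0.065 without M2 to 0.11 without pkd1M4.

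*slc22a21* lies 1420 bases further on, from 45904956 to 45922066. It had 306 CPM in M1, 170 in M2, 254 in pkd1M4 and 391 in pkd1M1, against 281 in F6, 164 in F1, 157 in F2, 199 in F3 and 104 in F4. The sexes overlapped, and the log2 fold change of 0.63 ± 0.30 (SE) did not pass the test (edgeR adjusted p = 0.22). *slc22a5*, whose mammalian homolog is the high-affinity carnitine carrier, had between 0 and 10 counts in each library and was not tested.

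*slc22a23*, on chromosome 2 from 2024610 to 2096055, is a member of the family with no well established substrate. Its CPM was 7.76 in M1, 35.1 in M2, 28.7 in pkd1M4 and 53.04 in pkd1M1, against 8.18 in F6, 6.40 in F1, 2.48 in F2, 9.11 in F3 and 5.63 in F4. M1 lay within the female range, and the other males lay above it. The log2 fold change was 2.29 ± 0.51 (SE, edgeR adjusted p = 0.015), and it was 1.91 without pkd1M1, with an adjusted p of 0.0505.

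Of the remaining *slc22a* genes, *slc22a31* on chromosome 7 lay just outside the fold threshold. It had 38.0 to 44.8 CPM in males and 8.46 to 20.4 CPM in females with no overlap, a log2 fold change of 1.45 ± 0.25 (SE) and an edgeR adjusted p of 0.0048, and it was called without F1 or F6, at 1.52 and 1.59. *slc22a13b*, related to a mammalian carrier of nicotinate and urate, had a log2 fold change of 0.21 ± 0.40 (SE) with 26.8 to 64.3 CPM in males and 19.0 to 69.9 CPM in females. Its paralog *slc22a13a* had 0 counts in 3 of the 4 male libraries and 15 in pkd1M1, against 7 to 75 counts in females, and did not pass the test (edgeR adjusted p = 0.24). *slc22a15*, *slc22a16* and *slc22a18* had log2 fold changes of -0.81 ± 0.37 (SE), -0.97 ± 0.53 (SE) and 0.18 ± 0.23 (SE), and none passed.

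**Figure D3:**
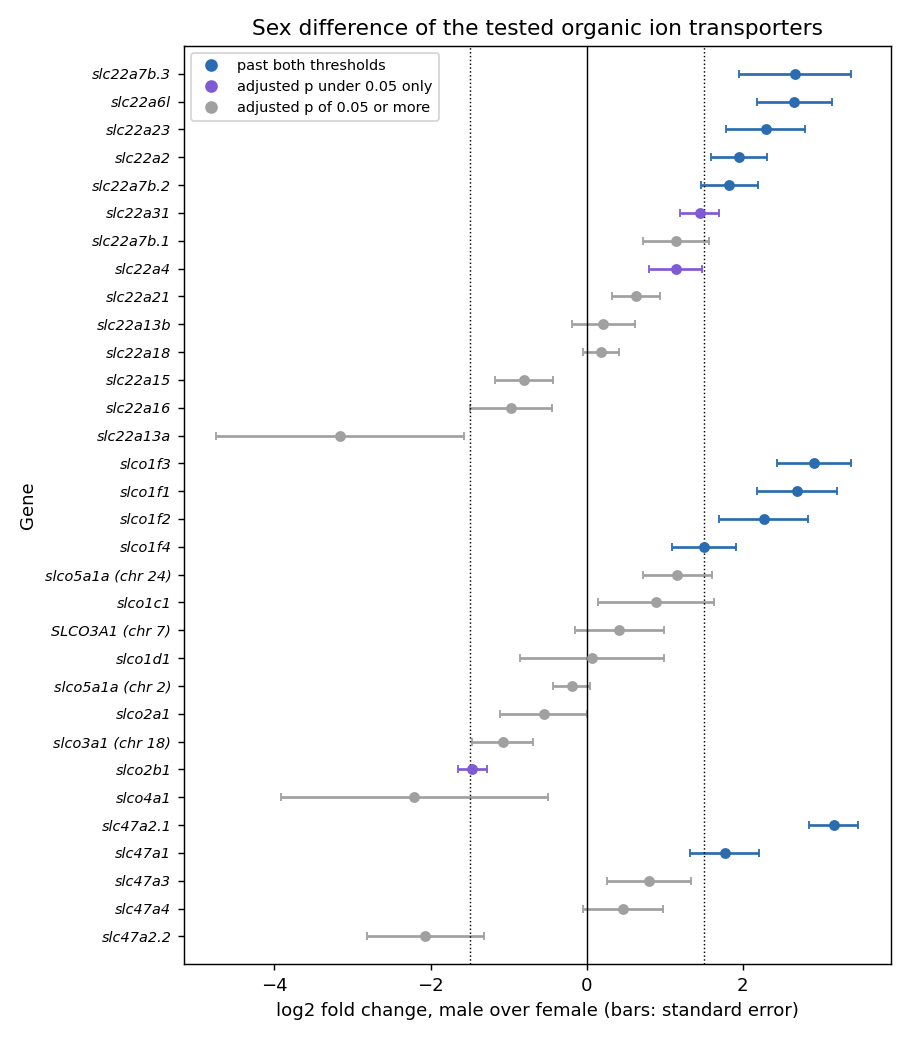
Log2 fold change, male over female (horizontal axis), of the 32 tested transporters by family, with bars for the standard error, a solid line at zero and dotted lines at 1.5 in each direction. The 11 blue genes are past both thresholds, the purple genes *slc22a31*, *slc22a4* and *slco2b1* pass the adjusted p only, and the grey genes do not pass it.

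The *slco1f* paralogs are a subfamily of organic anion transporting polypeptides described in zebrafish. All 4 were called higher in males, where 3.48% of all genes tested were. In each of them every male was above every female, which 8.42% of all genes tested did. *slco1f1* and *slco1f4* lie on chromosome 4 from 72092423 to 72144903 and from 72134837 to 72179937 and overlap in the annotation, and *slco1f2* and *slco1f3* lie further along the chromosome from 77286165 to 77304374 and from 77322543 to 77332032. Reads shared by these copies may have been divided between them, so their separate values are uncertain.

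*slco1f1* had a CPM of 984 in M1, 488 in M2, 532 in pkd1M4 and 746 in pkd1M1, against 241 in F6, 66.4 in F1, 51.9 in F2, 131 in F3 and 40.4 in F4. For *slco1f3* the CPM was 142 in M1, 165 in M2, 124 in pkd1M4 and 289 in pkd1M1, against 30.3 in F6, 27.6 in F1, 9.59 in F2, 42.4 in F3 and 9.80 in F4. Both had males well above females, with *slco1f1* highest in M1 and *slco1f3* highest in pkd1M1. Their log2 fold changes were 2.69 ± 0.51 (SE, edgeR adjusted p = 0.0069) and 2.91 ± 0.47 (SE, edgeR adjusted p = 0.0033).

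*slco1f2* had a CPM of 406 in M1, 531 in M2, 406 in pkd1M4 and 1323 in pkd1M1, against 146 in F6, 96.6 in F1, 126 in F2, 293 in F3 and 31.8 in F4. The value of pkd1M1 stood far above the other males. The log2 fold change was 2.27 ± 0.57 (SE, edgeR adjusted p = 0.025), and the call was lost without pkd1M1, F1 or F2, at 1.69 to 2.22 and adjusted p-values from 0.057 to 0.081.

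*slco1f4* had a CPM of 946 in M1, 1188 in M2, 999 in pkd1M4 and 2067 in pkd1M1, against 679 in F6, 403 in F1, 361 in F2, 699 in F3 and 154 in F4. Its log2 fold change of 1.501 ± 0.41 (SE, edgeR adjusted p = 0.036) was the closest to the fold threshold from inside, as *slco2b1* at -1.46 and *slc22a31* at 1.45 were from outside. Leaving out M1, M2, pkd1M1, pkd1M4, F1, F2 or F4 ended the call, with values from 1.18 to 1.63.

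The *slco1f* genes summed to 2061 to 4425 CPM in males and to 236 to 1166 CPM in females. The makeup of this sum also differed between the sexes. *slco1f4* took 45.8% ± 5.3 (SD, n = 4) of it in males against 64.2% ± 3.2 (SD, n = 5) for females, and *slco1f3* took 6.31% ± 0.54 (SD, n = 4) and 3.39% ± 1.16 (SD, n = 5), each without overlap. The shares of *slco1f1* and *slco1f2* overlapped between the sexes.

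**Figure D4:**
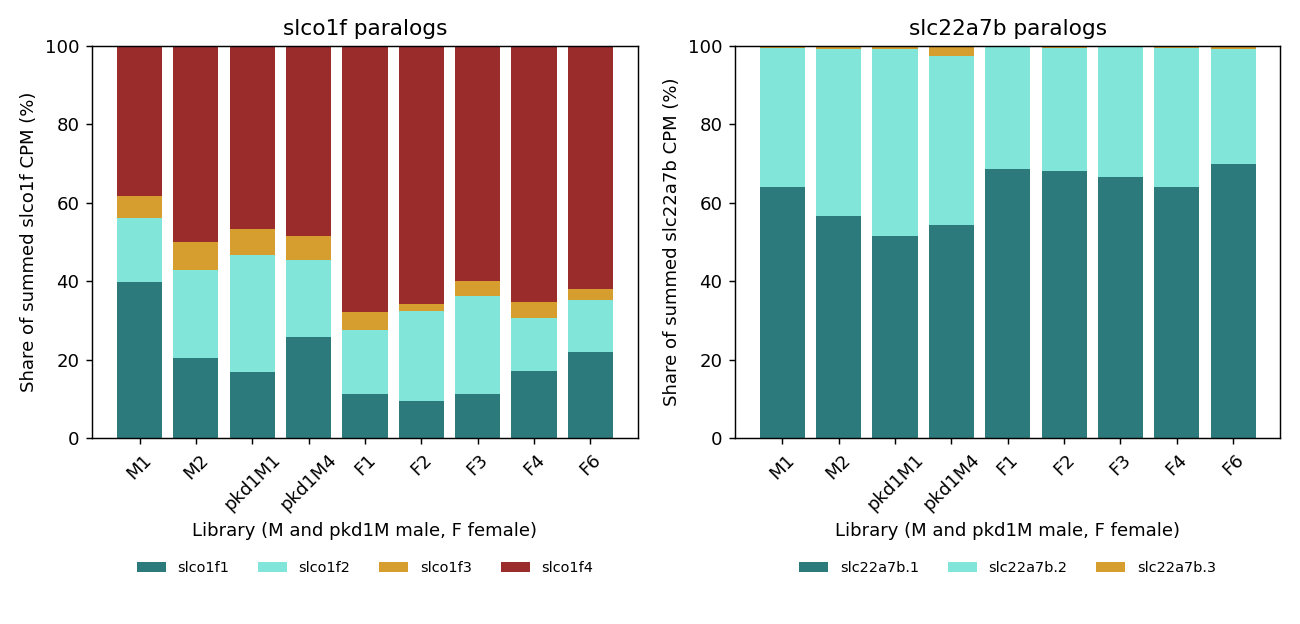
Share of the summed CPM (vertical axis, percent) taken by each *slco1f* paralog (left) and each *slc22a7b* paralog (right) in the 9 libraries (horizontal axis). The *slco1f4* share is below 51% in every male library and above 59% in every female library, and the *slc22a7b.1* share is lowest in pkd1M1 at 51.5% and highest in F6 at 70.0%.

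The *slco* genes outside this subfamily gave 0 calls in 9 tested, where 6.54% of all genes tested were called in either direction. At an unadjusted p under 0.05, 2 of the 9 were lower in males, against 2971 of all 22148 genes tested. The clearest difference was in *slco2b1*, on chromosome 21 from 40139036 to 40174677, whose mammalian homolog carries steroid sulfates and many drugs. Males had 22.5 CPM in M1, 32.5 in M2, 30.0 in pkd1M4 and 24.7 in pkd1M1, and females 75.7 in F6, 62.5 in F1, 78.9 in F2, 67.8 in F3 and 93.3 in F4. Every female was above every male, with a small spread in each sex. This difference, a log2 fold change of -1.46 ± 0.19 (SE, edgeR adjusted p = 0.0011), was just short of the fold threshold, and the gene was called without M2, pkd1M4, F1 or F3, at values up to -1.56.

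*slco3a1* on chromosome 18 also had every female above every male, with 1.60 to 5.77 CPM in males and 6.07 to 11.1 CPM in females, and a log2 fold change of -1.08 ± 0.40 (SE) that did not pass the adjustment (edgeR adjusted p = 0.11). The *SLCO3A1* gene on chromosome 7 had 0.42 ± 0.58 (SE). *slco2a1*, the prostaglandin transporter, had -0.55 ± 0.56 (SE), with 12.4 to 21.5 CPM in males and 6.81 to 46.0 CPM in females. *slco1c1*, a thyroid hormone carrier at the mammalian blood-brain barrier, had 0.89 ± 0.74 (SE).

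Of the 2 genes listed as *slco5a1a*, the one on chromosome 24 had 1.16 ± 0.45 (SE) and the one on chromosome 2, which the table of gene names calls *slco5a1b*, had -0.19 ± 0.23 (SE), and neither passed. *slco1d1*, which encodes an organic anion transporter studied in zebrafish, lies in the cluster of *slco1f2* and *slco1f3* on chromosome 4 and had 0.100 to 1.34 CPM in the other three males, 10.4 in pkd1M4 and 2.67 to 3.59 in females. Its sign rested on pkd1M4, with a log2 fold change of 0.07 ± 0.92 (SE) in all libraries and -1.90 without it. *slco1e1* had at most 32 counts in a library and was not tested, and *slco4a1* had 0 to 21 counts in males and 0 to 84 in females.

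Some libraries were high or low across many members at once. Among the 11 called genes, F6 was the highest female in 7 and F3 in 4, F2 and F4 were each the lowest female in 5, pkd1M1 was the highest male in 8 and M2 the lowest male in 7. With F6 left out, 14 members were called, the main 11 among them, together with *slc22a4*, *slc22a7b.1* and *slc22a31*.

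Markers of the proximal tubule, the segment where many of these carriers act in mammals, were present in every library. Their list (*lrp2a*, *cubn*, *slc5a2*, *slc34a1a*, *slc34a1b*, *slc20a1a*, *slc4a4a* and *pdzk1*) had 0 of 8 genes called, a median log2 fold change of 0.16 and a summed level of 2050 to 2951 CPM in males and 1208 to 3639 CPM in females. The markers did not share a direction, with 5 above zero and 3 below. The largest log2 fold changes were 1.76 ± 0.52 (SE, edgeR adjusted p = 0.0503) in *slc34a1b* and 1.57 ± 0.53 (SE, edgeR adjusted p = 0.081) in *slc20a1a*. The lowest was -0.70 ± 0.49 (SE) in *slc4a4a*. The highest sum was that of F6, above every male library. The sums of F1, F2, F3 and F4, from 1208 to 1817 CPM, lay below every male library. No marker was at 0 in any library. When the called transporters were set against this sum in each library, an alternative chosen after seeing the data, the sexes did not overlap in 8 of the 11. These 11 were picked by their sex difference in the same libraries, and the ratio was not taken over all genes. The 8 are therefore a description and not a test. *slc47a2.1* stood at 77.8 ± 8.7 (SD, n = 4) CPM per 100 CPM of the markers in males against 11.5 ± 2.7 (SD, n = 5) for females, and *slc22a2* at 248 ± 28.8 (SD, n = 4) and 80.9 ± 9.5 (SD, n = 5). F6 gave 10.3 for *slc47a2.1* and 89.3 for *slc22a2*, within the range of the other females. The 3 that overlapped were *slc22a23*, *slco1f2* and *slco1f4*.

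Markers of the distal tubule moved with sex. All 6 passed the adjusted p in the male direction, where 7.02% of all genes tested did. Of the 6, 3 were called higher in males, where 3.48% of all genes tested were. Their median log2 fold change was 1.45 over the 6. The sum of the 6 was 2096 to 2948 CPM in males and 599 to 1584 CPM in females, with none at 0. *kcnj1a.1*, a potassium channel of that segment, had 2.12 ± 0.38 (SE, edgeR adjusted p = 0.0054). The part of this difference in the values of the transporters was not tested.

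**Figure D5:**
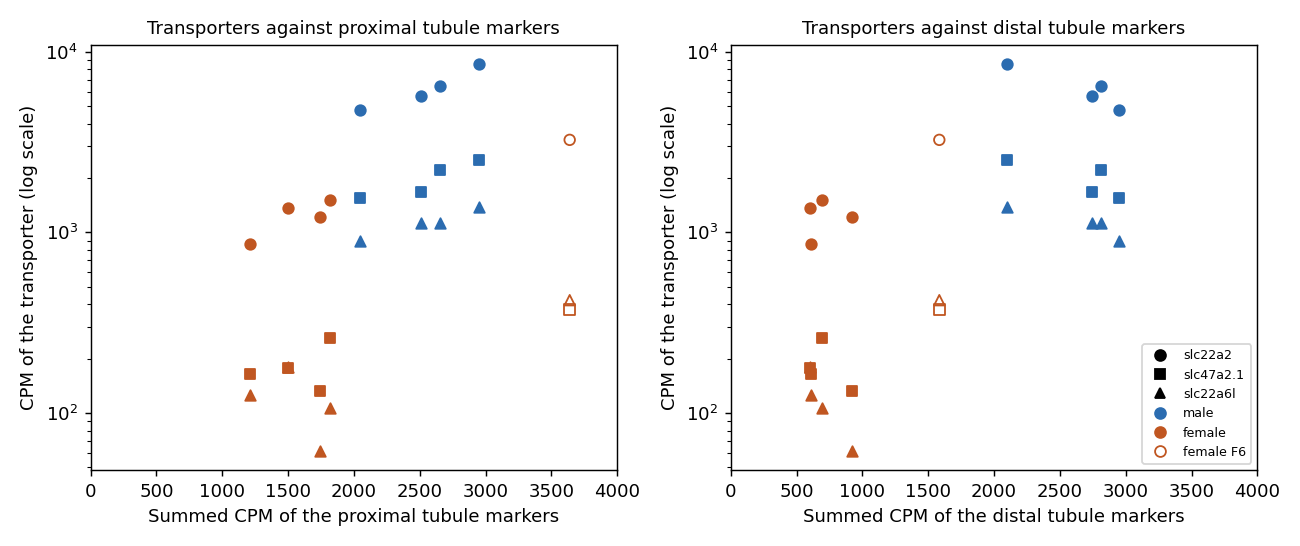
CPM of *slc22a2*, *slc47a2.1* and *slc22a6l* on a log scale (vertical axes) against the summed CPM of the proximal (left) and distal (right) tubule markers in each library (horizontal axes), males in blue, females in orange and F6 open. Library F6 has the highest proximal tubule sum, 3639 CPM, with each carrier below its lowest male value, and its distal tubule sum of 1584 CPM is below that of every male.

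Other tissues could also reach a kidney library. Of the hepatocyte markers 0 of 11 tested were called, with a median log2 fold change of 1.74, 10 above zero and 1 below. Their sum ran from 103 to 1932 CPM in males, highest in pkd1M4, and from 207 to 1192 CPM in females. *fgg*, *vtnb*, *serpina1l* and *ahsg2* were at 0 in at least 1 library of each sex. The marker below zero was *tfa*, at -1.28 ± 1.46 (SE). *tfa* had 0.824 CPM in M1, 11.4 in M2, 5.47 in pkd1M1, 741 in pkd1M4 and 176 to 949 in females. Markers of the interrenal cells, which make steroids, had a median of 1.44, with 0 of 5 called and a sum of 8.32 to 756 CPM in males and 45.8 to 199 CPM in females. Oocyte markers had 4 of 9 called higher in females, where 3.06% of all genes tested were. Their sum was 3033 CPM in F1 and between 68.5 and 153 CPM in the other females. Myeloid markers had 1 of 6 called, *csf1ra*, higher in females, where 3.06% of all genes tested were. On the adjusted p alone, 3 of the 6 were higher in females, where 6.20% of all genes tested were. All 6 were below zero, with a median of -1.15. The myeloid sum was 1946 to 3764 CPM in males and 3194 to 5634 CPM in females. Lymphoid markers had 0 of 6 called and 0 past the adjusted p alone, with all 6 below zero and a median of -1.28. Their sum was 18.8 to 47.1 CPM in males and 42.8 to 89.4 CPM in females. Erythroid markers had 0 of 8 called and a median of -0.38. The part of these cells in the transporter values was not tested.

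Genes that work beside the organic ion transporters were taken from 4 lists of 69 genes, of which 59 were tested. In them 10 were called higher in males, where 3.48% of all genes tested were, and 0 higher in females, where 3.06% were. On the adjusted p alone, 12 were higher in males and 4 in females, against 7.02% and 6.20% of all genes tested. The median log2 fold change was 0.38, against -0.03 over all genes tested. At an unadjusted p under 0.05, 5 of the 59 were lower in males, against 2971 of all 22148 genes tested. Among efflux pumps 3 of 26 tested were called, *abcc4*, *abcc2* and *abcb11a*, of which the first 2 encode pumps of conjugated organic anions and the last a homolog of the mammalian bile salt pump. *abcc4* had 75.2 to 191 CPM in males and 13.7 to 24.0 CPM in females with no overlap, and its log2 fold change was 2.68 ± 0.30 (SE, edgeR adjusted p = 0.00060).

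Among neighbouring carrier families 4 of 17 tested were called, all higher in males, where 3.48% of all genes tested were. These were the bile acid carriers *slc10a2* and *slc51a*, at 2.69 ± 0.37 (SE) and 2.38 ± 0.47 (SE), and the di- and tricarboxylate carriers *slc13a3* and *slc13a5a*, at 1.65 ± 0.49 (SE) and 2.26 ± 0.47 (SE). In mammals SLC13A3 supplies the dicarboxylates that OAT1 exchanges, and *slc13a3* had 662 to 937 CPM in males and 66.8 to 510 CPM in females without overlap. Of the scaffold proteins 0 of 3 were called, with *pdzk1*, which is also in the proximal tubule list, at 0.83 ± 0.36 (SE, edgeR adjusted p = 0.17).

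Among 13 transcriptional regulators 3 were called, all higher in males, where 3.48% of all genes tested were. Of these 3, 2 are described. *ahr1a*, a homolog of the aryl hydrocarbon receptor, had 17.3 to 64.2 CPM in males and 0.251 to 1.495 CPM in females, with a log2 fold change of 5.95 ± 0.63 (SE, edgeR adjusted p = 0.00049). The sexes were apart in this gene. *hnf4g* had 1.70 ± 0.32 (SE), and *ahr2* lay the other way, at -0.85 ± 0.19 (SE, edgeR adjusted p = 0.017).

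Within 100 kb of the called transporters lay 48 other genes, of which 46 were tested, with a median log2 fold change of 0.10. At an unadjusted p under 0.05, 4 of the 46 were lower in males, against 2971 of all 22148 genes tested. Of the 46, 7 were called higher in males, where 3.48% of all genes tested were, and 0 higher in females, where 3.06% were. Of the 7, *tmigd1*, *plrdgb*, *BX248108.1* and *slc13a5a* lay in 1 stretch near the MATE genes, so the count does not describe the neighbours of each transporter. The 7 also included *plg*, which starts at the base after *slc22a2* ends, at 1.77 ± 0.39 (SE, edgeR adjusted p = 0.015). Another was *crip3*, which overlaps *slc22a7b.3* in the annotation, at 2.23 ± 0.58 (SE, edgeR adjusted p = 0.030). These neighbours were named after their values were seen.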

How the data were processed

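RNA of zebrafish kidneys was sequenced by the authors from libraries made with a TruSeq kit, and paired-end reads were assigned to GRCz11 transcripts (Ensembl 101) with Kallisto and summed to genes with tximport. The submitters' processing notes list GRCz10 and kallisto with no version. The table deposited by the authors holds estimated counts for each gene, whole numbers that were not normalized between libraries, described as TPM scaled to library size. No column was left unused (0). The labels give 4 male and 5 female samples, and the methods give 5 sets of kidneys per sex. Columns pkd1M1, pkd1M4 and F6 could be tied to a sex but to no single sample.

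Genes were filtered with filterByExpr, scaled with TMM and compared with glmQLFit and glmQLFTest of edgeR 4.0.16 in R 4.3.3, and a gene was called at a Benjamini-Hochberg adjusted p under 0.05 with a log2 fold change above 1.5 in size, which follows the study's thresholds. The standard error was the fold change divided by the root of F. Alternatives were RLE factors, DESeq2 1.42.0, edgeR's exact test, other filters and thresholds, each library left out, a replicate block, and the pkd1-named males left out or as a term. Fitting the block's 4 libraries without the block and dividing by proximal tubule markers were chosen after seeing the data. The test was tried on simulated data. Every pair of libraries of a sex differed by more than sampling noise.

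The members and lists were chosen with earlier results of these data known. Named genes are the members called, the 10 with the highest mean CPM, all *slc47a* genes, members with a textbook role, and from the surrounding lists the 3 with the smallest p in each direction among those past both thresholds (0 in the female direction), of which 1 is not reported here. Values in every library are given for the first 2 of these groups and for *slco2b1*. No gene in the deposited table had the symbol *slc22a8* or *slc22a12*, although the table of gene names pairs *slc22a6l* with SLC22A8. *slc10a2*, *slc51a*, *slc13a3*, *slc13a5a*, *abcc2*, *abcb11a*, *hnf4g*, *ahr2* and *pdzk1* were named after their values were seen. All 35 gene IDs matched the gene name table. Promoter motifs were not analysed here. Figures were drawn with matplotlib 3.10.9.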

Additional observations from a re-analysis of the deposited data

Results flagged for a closer look

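In 14 of 68 sets of values tested (a gene in 1 sex), a single library lay far from the others of its sex. The gap rule used gives about 1 in 20 for independent, normally distributed values. CPM were not transformed and the sets share libraries, so the 14 cannot be set against that rate. F6 was the female far above the others in 5 of them, at 3249 CPM in *slc22a2* with the next female at 1512, 220 CPM in *slc22a4* (next 92.8), 87.3 CPM in *slc22a18* (next 51.9), 5.01 CPM in *slc22a7b.3* (next 1.64) and 226 CPM in *slc47a4* (next 68.8). F1 was far above in *slco4a1*, at 2.34 CPM (next 0.630), and far below in *slco5a1a* on chromosome 2, at 16.7 CPM (next 22.1). F4 was far below in *BX248108.1*, at 1.53 CPM (next 4.71).

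Among males, pkd1M1 was far above the others in *slco1f2* at 1323 CPM (next 531), in *slc47a2.2* at 4.36 CPM (next 0.997) and in *slc22a13a* at 0.321 CPM (the others at 0). M1 was far above in *slc47a4* at 216 CPM (next 97.0) and in the gene listed as *2-Oct* at 109.7 CPM (next 41.2). pkd1M4 was far above in *slco1d1* at 10.4 CPM (next 1.34), and it also held the highest sum of hepatocyte markers, 1932 CPM, whose part in this value was not tested.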

How the results depend on the processing

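All 11 called transporters kept the male direction under every alternative run. The count of members called fell to 2 without the pkd1-named males and to 4 with a term for them, all higher in males, and with each library left out it lay between 8 and 14, of which 7 to 14 were higher in males (7 without pkd1M1) and 0 to 1 in females. Over all genes tested, 1448 were called in the main fit, 635 without the pkd1-named males and 637 with the term. With each library left out, 1086 to 1707 of all genes were called. The count of members called higher in females was 1 with DESeq2, with no fold threshold and with a fold threshold of 1. The 4 lists of surrounding genes gave 6 calls in place of 10 without the pkd1-named males, 16 with no fold threshold and 9 to 11 with each library left out. With the replicate number as a block over M1, M2, F1 and F2, 9 members and 10 surrounding genes were called, against 4 and 4 in the same libraries without the block. Over all genes, 859 were called with the block and 355 without it. The labels state no pairing. Same-numbered libraries had a correlation of deviations of -0.0003. With only M1, M2, F1 and F2 this is a single value, so it cannot show whether the numbers pair the libraries. Among uncalled genes 3 changed sign. *SLCO3A1* on chromosome 7 lay between -0.040 (without pkd1M4) and 0.66 with each library left out and went to -0.11 under the block, *slco5a1a* on chromosome 2 to 0.12 under the block and 0.13 in its libraries without it, and *slco1d1* lay between -1.90 (without pkd1M4) and 0.47 with each library left out and went to -2.83 under the block, -2.001 in its libraries without it, and -2.09 both without the pkd1-named males and with a term for them. The cause was not tested. *slco1f4* fell to 1.490 to 1.498, under the fold threshold, with RLE factors, DESeq2, no filter or a minimum of 10 counts. DESeq2 gave no adjusted p for 3 of the 32 members. At 0 to 84 counts a library, differences in *slc22a5*, *slc22a7a*, *slco1e1*, *slc22a13a* and *slco4a1* could have been missed. The filter left out *slc22a5*, *slc22a7a* and *slco1e1*. *slc22a13a* and *slco4a1* did not pass the test (edgeR adjusted p = 0.24 and 0.47). Whether depth was the limit was not tested.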

Other observations

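A pair of genes outside the name rule are paired with names of these families in the table of gene names, and both were chosen after their values were seen. The gene listed as *2-Oct*, a symbol in the form of a date, is paired there with *slc22a3*, a carrier that in mammals moves organic cations and monoamines, and lies on chromosome 17 from 6331994 to 6349044. Its CPM was 109.7 in M1, 31.2 in M2, 41.2 in pkd1M4 and 40.7 in pkd1M1, against 30.4 in F6, 8.07 in F1, 7.36 in F2, 12.9 in F3 and 20.6 in F4. The sexes did not overlap, and the log2 fold change of 1.81 ± 0.49 (SE) was past both thresholds with an edgeR adjusted p of 0.035. The call was lost without M1, pkd1M1, pkd1M4, F1, F2, F3 or F4, at 1.25 to 1.94 and adjusted p-values from 0.053 to 0.12.

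The gene listed as *BX248108.1* is paired with *slc47a2.2* in the table of gene names, a name the deposited table gives to a gene on chromosome 1. It lies on chromosome 21 from 40021263 to 40040178, just after *slc47a2.1*. Its CPM was 46.0 in M1, 23.2 in M2, 18.4 in pkd1M4 and 42.5 in pkd1M1, against 5.58 in F6, 5.59 in F1, 4.71 in F2, 5.43 in F3 and 1.53 in F4. All males were above all females. The log2 fold change was 2.83 ± 0.42 (SE, edgeR adjusted p = 0.0021) and stayed between 2.60 and 3.03 under every alternative, with the call held in 9 of 9 fits that left out a library.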
